A study of Mus musculus with 24 samples.

Results

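Collagen chain genes were examined in the efferent (EN, ventral root) and afferent (AN, dorsal root) nerve fibres of the L4-L6 spinal segments of C57BL/6 mice. The 24 one-colour mouse expression arrays covered newborns (P0) and mice aged 1, 3 or 5 weeks, written 1 W, 3 W and 5 W, with 3 arrays for each fibre type and age. All mice were of the wild-type strain and received no treatment, so by the labels the groups differ in root and age, while slides were not spread evenly over the ages. The design gives 9 animals per time point and 3 independent experiments per group, and the tissue of a group was collected into 1 tube, so it is not stated whether the arrays of a group came from separate animals, and the p-values measure the spread between arrays. A gene was included when its array name is that of a collagen alpha chain and some group had a probe marked well above background on each of its 3 arrays. This gave 42 of the 44 collagen genes on the array, each read by its probe with the highest mean signal. 36 of the 42 were well above background on all 24 arrays. Col4a3 and Col6a6 did not pass: no probe of either was above background on more than 1 array of any group. Just inside the limit, Col6a5, Col10a1 and Col19a1 were each above background on 13 arrays.

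Collagens are the main structural proteins of the extracellular matrix. Their alpha chains share long runs of a Gly-X-Y repeat, in which glycine at every turn lets the chains wind into a triple helix. Fibrillar chains build the cords of the endoneurium and epineurium, type IV chains form the network of the basal lamina around each Schwann cell and vessel, and type VI chains make beaded filaments between them. FACIT collagens decorate fibrils, multiplexins sit at basement membranes, and transmembrane collagens are carried on the cell surface. In peripheral nerve, Schwann cells need a basal lamina to myelinate axons, and fibroblasts and perineurial cells lay down most of the fibrils.

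The repeat can be read in the array probes themselves. It is shown in the probes of 5 genes whose values are described here, with the longest unbroken run of glycine codons, spaced as the repeat spaces them, in capitals. Glycine codons outside that run, as at the start of the Col14a1 probe, stay in lower case. The probes for Col14a1 and Col15a1 are those used for their values, and the others are second probes of their genes. Coordinates are mm9 as the array files give them. Col14a1 lies at chr15:55347733-55347792 (plus strand), Col15a1 at chr4:47283786-47283845 (plus) and Col16a1 at chr4:129756457-129756516 (plus). The probes of Col5a3, at chr9:20590066-20590795 (minus), and Col6a3, at chr1:92689602-92690594 (minus), span intervals longer than their 60 bases and so cross exon junctions.
Col14a1: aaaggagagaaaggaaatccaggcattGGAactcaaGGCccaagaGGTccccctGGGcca
Col15a1: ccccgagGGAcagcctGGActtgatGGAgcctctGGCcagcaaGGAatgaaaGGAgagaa
Col16a1: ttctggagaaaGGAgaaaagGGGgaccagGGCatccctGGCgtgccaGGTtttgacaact
Col5a3: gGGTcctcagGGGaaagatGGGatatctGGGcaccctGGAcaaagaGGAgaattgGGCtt
Col6a3: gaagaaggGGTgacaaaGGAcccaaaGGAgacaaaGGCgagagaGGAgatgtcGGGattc
Between 4 and 7 glycine codons followed each other in frame in each of them, with no stop codon in that frame.

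The values are log2 signals that the authors had quantile normalized across arrays. A gene was called when its Benjamini-Hochberg adjusted p over all 36410 tested probes was under 0.05 and its fold change was above 2, from limma fitted to all 24 arrays. Brightness differs between probes for reasons of sequence, so levels are compared only between groups of one gene. The median spot signal per array was 45.4 to 190.6 intensity units over a background of 23 to 46, 55.1% to 71.7% of spots were above background, and the number of arrays limits the precision. Whole roots were measured, so fewer cells of a type and less RNA per cell cannot be told apart. The 10 sensory neuron markers did not set the roots apart at P0: their mean was 10.16 to 10.72 over the EN arrays and 10.07 to 11.77 over the AN arrays (exact two-sided permutation p = 0.9), so the labels of AN and EN at P0 are not borne out by these markers. At 5 W their mean was 6.3 to 6.95 in EN and 6.32 to 9.61 in AN. Those ranges also overlap (exact permutation p = 0.3), so at 5 W too the markers did not set all arrays apart. At 1 W and 3 W the exact permutation p was 0.1. All 3 W arrays were on 1 slide, shared only with replicate 3 at 5 W, while AN and EN of a replicate number always shared a slide.

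From birth to 5 W, the collagen genes fell more often than they rose in both roots. In EN 6 of 42 rose and 16 fell, beside 15.4% of all tested probes called higher and 14.5% called lower. In AN 5 rose and 17 fell, beside 15.2% and 12.7% of all probes. The share of collagen genes called lower was 38.1% in EN and 40.5% in AN, while the shares called higher, 14.3% and 11.9%, were near those of all probes. Col10a1 and Col19a1, which fell in both roots, passed the filter only through their early groups and so had to differ. Over the 36 genes above background on all 24 arrays, 6 rose and 13 fell in EN, and 5 rose and 15 fell in AN. With the mean of a gene's probes, 6 of 42 rose and 12 fell in EN, and 5 rose and 13 fell in AN. The median log2 change of the collagen genes was -0.58 in EN and -0.72 in AN, against 0.04 and 0.03 over all probes. The roots have separate arrays, but those of the same replicate number shared a slide and deviated together. Of the 16 genes that fell in EN and the 17 that fell in AN, 13 were shared, 81.2% of the EN list and 76.5% of the AN list. Over all tested probes called lower, the shared ones made up 69.6% of the EN list and 79.5% of the AN list. All 5 genes that rose in AN, Col5a3, Col8a2, Col15a1, Col23a1 and Col24a1, also rose in EN, where Col14a1 was the sixth. On the 1 slide that held both ages (2 arrays at P0 and 1 at 5 W for each root), every called gene changed in the called direction. Those arrays were part of the fit that made the calls, so this is no separate test of them.

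**Figure D1:**
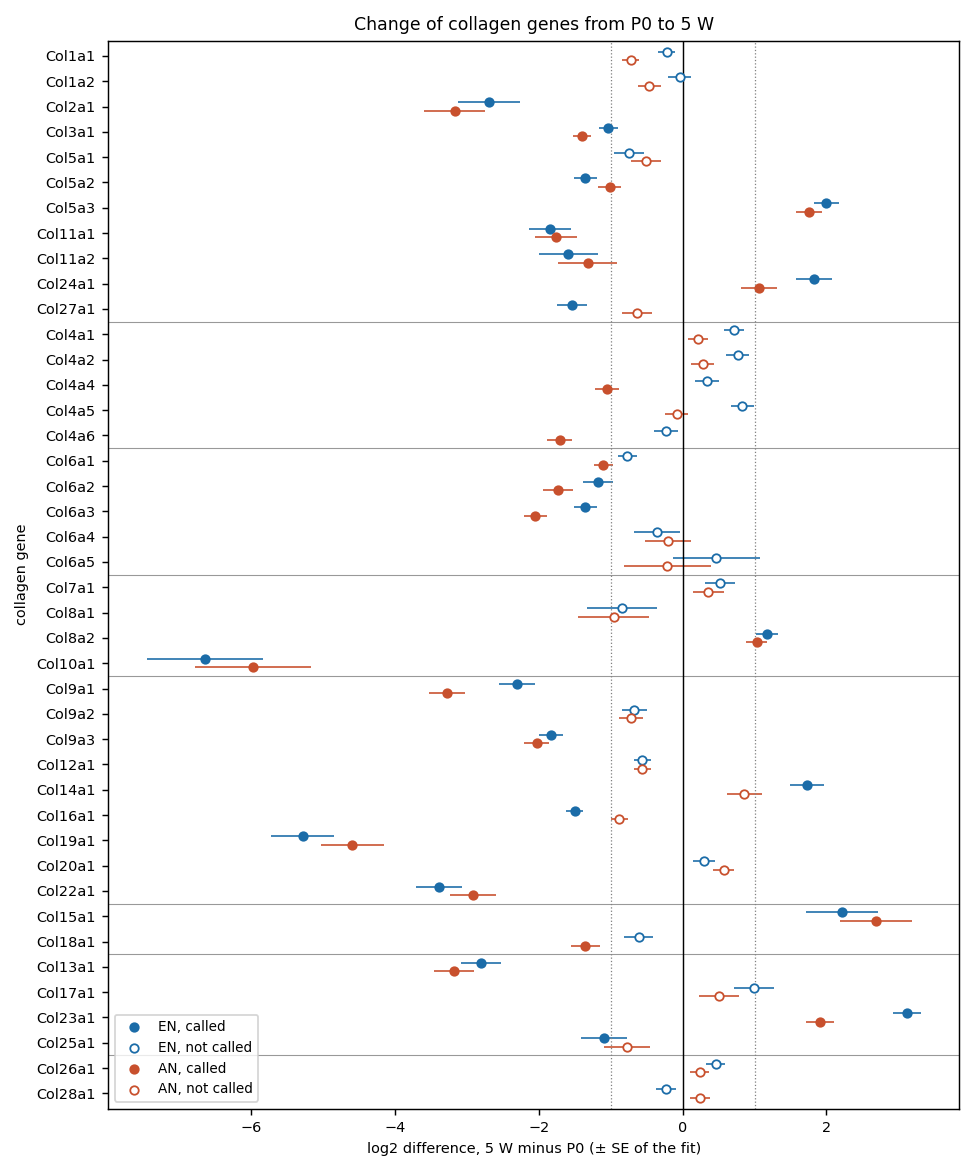
Log2 difference between 5 W and P0 for each collagen gene (y axis) in EN (blue) and AN (orange), with bars for the standard error of the fit, filled points for called genes and dotted lines at a 2-fold change. The points reach from -6.64 for Col10a1 in EN to 3.12 for Col23a1 in EN, and 22 genes are filled in each root.

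**Figure D2:**
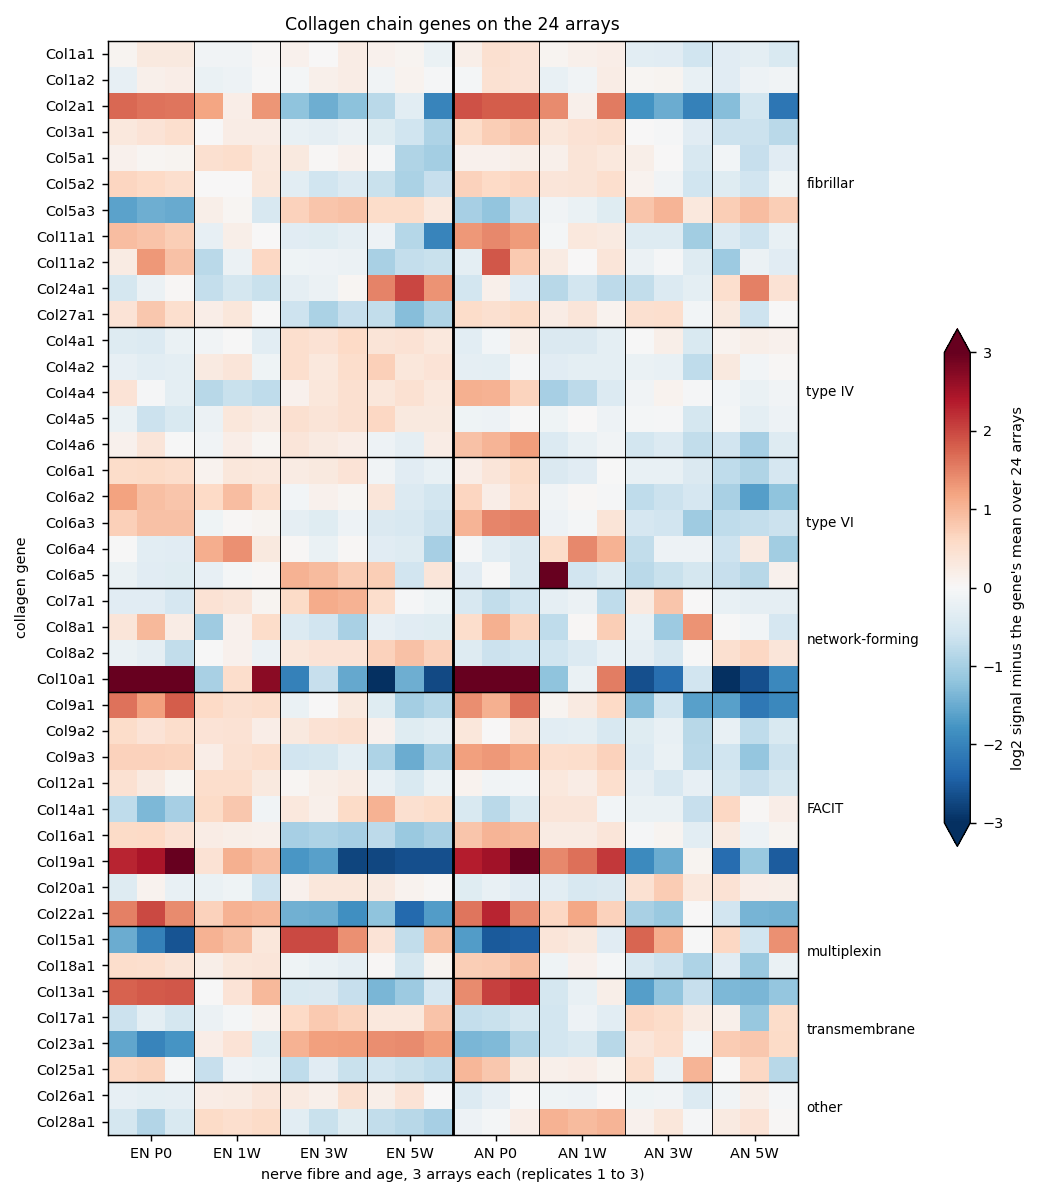
Log2 signal of each collagen gene on each of the 24 arrays after subtraction of the gene's mean, with genes grouped by structural class and colours cut at 3 log2 units. The P0 columns hold the highest mean of 21 genes in EN and of 24 genes in AN, and the 5 W columns hold the lowest mean of 21 and 20 genes.

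The highest of the 4 ages was P0 for 50% of the collagen genes in EN and 57.1% in AN, compared with 34.4% and 34.6% of all tested probes. The mean fell at every step for 14 genes in EN and 13 in AN, which is 33.3% and 31.0% of the genes against 15.1% and 14.6% of probes. It rose at every step for 3 genes in each root. In EN these were Col4a2, Col8a2 and Col23a1, and in AN they were Col5a3, Col8a2 and Col23a1.

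The steps differed in which genes were called. In EN between P0 and 1 W, 6 genes rose (Col5a3, Col6a4, Col14a1, Col15a1, Col23a1 and Col28a1) and 4 fell (Col9a1, Col10a1, Col13a1 and Col19a1), with 6.25% of probes called higher and 5.67% lower. In AN over the same step 2 rose (Col6a4 and Col15a1) and 7 fell (Col4a4, Col4a6, Col6a3, Col9a1, Col10a1, Col11a1 and Col13a1), with 4.96% and 3.62% of probes called. Scaling each array to its 75th percentile made this split 3 and 6. Between 1 W and 3 W, 2 genes rose and 5 fell in EN (5.65% and 6.03% of probes), and none rose and 6 fell in AN (6.19% and 6.37%). Without replicate 3 of AN at 3 W, the AN counts were 3 and 7, and with slide as a block they were also 3 and 7. Between 3 W and 5 W, 1 gene rose and none fell in each root, with 0.700% and 0.417% of probes called in EN and 1.05% and 0.632% in AN. That gene was Col24a1 in both, and its call was lost in AN without replicate 2 at 5 W. At an unadjusted p under 0.05, 13 genes in EN and 11 in AN passed for this last step. The share of all probes passing at that level was not counted, so these counts cannot be read as a result about collagen genes.

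Among the fibrillar chains, which form the cross-striated fibres, 2 rose and 6 fell of 11 in EN from P0 to 5 W, and 2 rose and 5 fell in AN. Col1a2, a chain of type I collagen and the highest-signal probe of the class, read 17.93, 18.32 and 18.37 in EN at P0 and 18.06, 18.27 and 18.15 at 5 W. In AN it read 18.12, 18.62 and 18.58 at P0 and 17.84, 18.03 and 18.06 at 5 W. The EN groups overlap, the AN groups do not, and neither difference was called (-0.04 ± 0.16 in EN and -0.46 ± 0.16 in AN, log2 ± SE). Col1a1 is its partner chain. EN arrays of Col1a1 held 16.63, 16.85 and 16.83 (P0), 16.45, 16.44 and 16.59 (1 W), 16.67, 16.56 and 16.77 (3 W) and then 16.68, 16.62 and 16.34 (5 W). AN arrays of Col1a1 held 16.72, 17.03 and 16.97 (P0), 16.63, 16.7 and 16.75 (1 W), 16.23, 16.21 and 15.94 (3 W) and then 16.2, 16.26 and 16.09 (5 W). It changed by -0.22 ± 0.12 in EN and -0.72 ± 0.12 in AN, also short of 2-fold. Other probes of Col1a1 gave -1.05 in AN, which was called lower (limma adjusted p = 0.000725), and -0.84, which was not. Those of Col1a2 gave -0.98 and -0.5 in AN, neither called, and no other probe of these genes was called in EN. Col3a1 is the reticular fibre chain. EN arrays of Col3a1 held 16.77, 16.86 and 16.95 (P0), 16.46, 16.68 and 16.69 (1 W), 16.23, 16.19 and 16.28 (3 W) and then 16.1, 15.85 and 15.53 (5 W). AN arrays of Col3a1 held 17, 17.19 and 17.29 (P0), 16.8, 16.88 and 16.93 (1 W), 16.46, 16.43 and 16.11 (3 W) and then 15.82, 15.81 and 15.66 (5 W). It fell by 1.03 ± 0.13 in EN (limma adjusted p = 3.55e-06) and by 1.4 ± 0.13 in AN (adjusted p = 8.66e-08). The EN call of this probe was lost with array weights and without replicate 3 at P0 or at 5 W. Other probes of Col3a1 were called lower in both roots, at -1.84 and -2.09 in EN and -2.1 and -2.18 in AN.

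Col2a1, the main fibrillar chain of cartilage, was among the genes that fell. In EN it read 14.08, 13.98 and 13.95 at P0, 13.54, 12.54 and 13.67 at 1 W, 11.14, 10.89 and 11.11 at 3 W and 11.53, 12.03 and 10.36 at 5 W. In AN it read 14.25, 14.16 and 14.16 at P0, 13.77, 12.5 and 13.9 at 1 W, 10.55, 10.87 and 10.33 at 3 W and 11.06, 11.79 and 10.19 at 5 W. Every array at 3 W and 5 W was below every array at P0 in both roots, a fall of 2.69 ± 0.43 in EN (limma adjusted p = 3.48e-05) and of 3.17 ± 0.43 in AN (adjusted p = 5.82e-06). Col11a1, which joins type II collagen in thin fibrils, fell by 1.84 ± 0.29 and 1.76 ± 0.29. Col11a2 fell by 1.59 ± 0.41 in EN and by 1.32 ± 0.41 in AN, where P0 and 5 W overlap and the call was lost under normexp and without replicate 2 at P0, and a second probe of Col11a2 gave 0.23 in EN.

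Type V collagen starts fibrils and limits their width, and its chains parted. Col5a3 read 12.86, 12.99 and 12.94 in EN at P0 and 15.01, 15.01 and 14.77 at 5 W. In AN it read 13.46, 13.28 and 13.74 at P0 and 15.2, 15.37 and 15.19 at 5 W. The groups do not overlap in either root, and the rises were 2.0 ± 0.18 in EN (limma adjusted p = 3.19e-08) and 1.76 ± 0.18 in AN (adjusted p = 1.64e-07). A second probe, the one printed above, gave 2.35 and 1.97. Col5a2, the gene beside Col3a1, was lower at 5 W. EN arrays of Col5a2 held 12.2, 12.14 and 12.06 (P0), 11.57, 11.55 and 11.89 (1 W), 11.22, 10.96 and 11.13 (3 W) and then 10.88, 10.6 and 10.86 (5 W). AN arrays of Col5a2 held 12.24, 12.15 and 12.2 (P0), 11.9, 11.94 and 12.04 (1 W), 11.66, 11.43 and 10.94 (3 W) and then 11.18, 10.97 and 11.41 (5 W). It fell by 1.35 ± 0.16 in EN and 1.01 ± 0.16 in AN, but its other probe gave 0.04 in both and the AN call was lost under 75th percentile scaling, normexp and without replicate 1 at P0 or replicate 2 at 5 W. Col5a1 changed by -0.75 ± 0.21 in EN and -0.51 ± 0.21 in AN and was not called.

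Col24a1, a fibrillar chain described in developing bone and the eye, moved late. In EN it read 7.16, 7.51 and 7.71 at P0, 7.4, 7.51 and 7.74 at 3 W and 9.16, 9.69 and 9.03 at 5 W. In AN it read 7.12, 7.84 and 7.34 at P0, 6.94, 7.26 and 7.39 at 3 W and 8.18, 9.19 and 8.11 at 5 W. The 5 W arrays were above all earlier arrays of the same root. From P0 the rise was 1.83 ± 0.25 in EN (limma adjusted p = 7.34e-06) and 1.06 ± 0.25 in AN (adjusted p = 0.00183). The AN call was lost without replicate 1 at P0, without replicate 2 at 5 W, and under 75th percentile scaling, normexp and array weights.

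Among the type IV chains of the basal lamina, none of 5 was called from P0 to 5 W in EN, where 4 of 5 had a positive change, and 2 of 5, Col4a4 and Col4a6, fell in AN. The change in AN was below that in EN for all 5, and the test of that difference called both genes, -1.39 ± 0.24 for Col4a4 (limma adjusted p = 0.00647) and -1.47 ± 0.24 for Col4a6 (adjusted p = 0.00428). Over all collagen genes this test called none higher and 3 lower, with Col23a1 as the other, beside 0.615% of probes higher and 0.316% lower. The remaining type IV genes gave -0.50 for Col4a1 (adjusted p = 0.336), -0.49 for Col4a2 (adjusted p = 0.437) and -0.91 for Col4a5 (adjusted p = 0.0536). Fitted to the arrays of these groups alone, none of the 3 genes passed. The fall of Col4a4 in AN, 1.05 on the log2 scale, was under 2-fold with normexp and without replicate 1 or 2 at P0.

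Col4a6, a chain found in a subset of basement membranes, read 9.77, 9.99 and 9.63 in EN at P0 and 9.48, 9.36 and 9.85 at 5 W, while in AN it read 10.52, 10.64 and 10.88 at P0 and 9.05, 8.63 and 9.24 at 5 W. At P0 every AN array was above every EN array, and at 5 W every AN array was below every EN array. At 1 W the AN arrays read 9.21, 9.42 and 9.52, so most of the fall in AN had taken place by then. Col4a4 read 8.58, 8.13 and 7.88 in EN and 9.24, 9.21 and 8.84 in AN at P0, and 8.5, 8.63 and 8.49 in EN and 8.1, 7.97 and 8.06 in AN at 5 W. It showed the same crossing, with no overlap at either age, and a second probe of Col4a4 gave -1.30 for the difference in change (adjusted p = 0.011). For the change of the root difference by 1 W, 9 genes passed at an unadjusted p under 0.05, with no share of all probes counted at that level. This change was called for no collagen gene, beside 0.0220% of probes higher and 0.0412% lower. With the replicate block it was called for Col4a6 (-1.19, block adjusted p = 0.000777 against 0.0808) and Col23a1 (-1.28, block adjusted p = 0.00164 against 0.101).

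**Figure D3:**
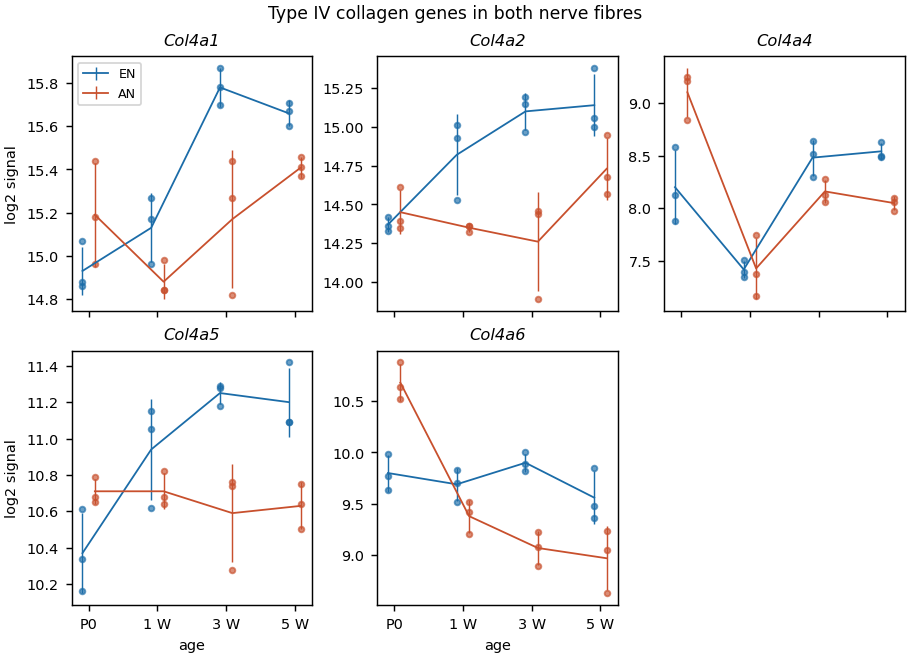
Log2 signal of the 5 type IV genes by age in EN (blue) and AN (orange), with a point for each array, lines through the means of 3 arrays and bars for ± 1 SD. The AN points of Col4a4 and Col4a6 lie above EN at P0 and below it at 5 W.

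Col4a1 and Col4a2 encode the chains of the most common type IV protomer. Col4a1 read 14.88, 14.86 and 15.07 in EN at P0, 15.17, 15.27 and 14.96 at 1 W, 15.78, 15.7 and 15.87 at 3 W and 15.67, 15.71 and 15.6 at 5 W. In AN it read 14.96, 15.18 and 15.44 at P0, 14.84, 14.84 and 14.98 at 1 W, 15.27, 15.44 and 14.82 at 3 W and 15.37, 15.46 and 15.41 at 5 W. EN was higher than AN on every array at 3 W, by 0.61 (adjusted p = 0.0171), which is under 2-fold. Col4a2 is the partner chain. EN arrays of Col4a2 held 14.42, 14.33 and 14.36 (P0), 14.93, 15.01 and 14.53 (1 W), 15.15, 14.97 and 15.19 (3 W) and then 15.38, 15 and 15.06 (5 W). AN arrays of Col4a2 held 14.39, 14.35 and 14.61 (P0), 14.32, 14.36 and 14.36 (1 W), 14.46, 14.44 and 13.89 (3 W) and then 14.95, 14.57 and 14.68 (5 W). The changes from P0 to 5 W were 0.72 ± 0.14 in EN and 0.22 ± 0.14 in AN for Col4a1, and 0.77 ± 0.16 and 0.28 ± 0.16 for Col4a2. Across the 8 group means the 2 genes had Pearson r = 0.86.

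The 2 genes lie head to head on chromosome 8. Their promoter windows, 250 bases before to 50 after the start in RefSeq on GRCm38.p6, are at chr8:11312777-11313076 (minus strand) for Col4a1 and chr8:11312555-11312854 (plus strand) for Col4a2. They are printed because these 2 genes share promoter sequence. The capitals mark the 78 bases, 11312777 to 11312854, that belong to both windows and are read on opposite strands.
Col4a1: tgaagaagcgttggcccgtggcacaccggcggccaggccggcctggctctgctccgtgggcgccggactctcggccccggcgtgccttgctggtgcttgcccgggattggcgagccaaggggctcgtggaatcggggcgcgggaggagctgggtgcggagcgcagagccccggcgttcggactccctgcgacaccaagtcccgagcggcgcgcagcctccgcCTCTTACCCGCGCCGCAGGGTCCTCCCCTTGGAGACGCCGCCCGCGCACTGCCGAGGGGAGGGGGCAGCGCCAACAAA
Col4a2: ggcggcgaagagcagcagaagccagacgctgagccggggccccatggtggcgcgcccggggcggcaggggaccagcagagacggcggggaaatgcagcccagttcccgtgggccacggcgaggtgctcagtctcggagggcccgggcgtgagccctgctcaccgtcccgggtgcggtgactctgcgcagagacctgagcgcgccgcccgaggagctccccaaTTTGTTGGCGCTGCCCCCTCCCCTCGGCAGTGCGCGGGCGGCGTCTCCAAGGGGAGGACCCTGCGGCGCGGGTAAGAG
Each window holds CCAAT and GGGCGG on one strand or the other, and neither holds TATAAA. Of the 42 collagen genes, 34 matched a promoter by symbol, in 37 windows. GGGCGG occurred in 59.5% of these and in 35.7% of all 32851 windows, CCAAT in 35.1% and 37.4%, and TATAAA in 13.5% and 13.6%, each counted on both strands.

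Neighbouring genes differed in how alike their courses were. Over the 8 group means r was 0.92 for Col6a1 and Col6a2, 0.94 for Col3a1 and Col5a2, and 0.16 for Col4a5 and Col4a6, which lie head to head on the X chromosome. Col4a5 pairs with Col4a6 in a protomer. EN arrays of Col4a5 held 10.61, 10.16 and 10.34 (P0), 10.62, 11.15 and 11.05 (1 W), 11.28, 11.18 and 11.29 (3 W) and then 11.42, 11.09 and 11.09 (5 W). AN arrays of Col4a5 held 10.68, 10.65 and 10.79 (P0), 10.68, 10.82 and 10.64 (1 W), 10.74, 10.76 and 10.28 (3 W) and then 10.75, 10.5 and 10.64 (5 W). It changed by 0.83 ± 0.16 in EN and -0.08 ± 0.16 in AN from P0 to 5 W, where Col4a6 changed by -0.23 ± 0.17 and -1.71 ± 0.17. Among chains of 1 protein type on separate chromosomes, r was 0.73 for Col1a1 and Col1a2, 0.79 for Col9a1 and Col9a2, and -0.79 for Col8a1 and Col8a2. These are descriptions over means that share the ages and arrays.

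Type VI collagen links cells to the fibrils around them. In EN 2 of 5 type VI genes fell from P0 to 5 W (Col6a2 and Col6a3) and in AN 3 fell (Col6a1, Col6a2 and Col6a3). Col6a1 read 15, 15.02 and 14.99 in EN at P0 and 14.34, 14.12 and 14.23 at 5 W, and in AN 14.65, 14.82 and 15.03 at P0 and 13.7, 13.56 and 13.94 at 5 W. The fall was 1.1 ± 0.13 in AN (limma adjusted p = 1.27e-06), lost under 75th percentile scaling, while the change of -0.77 ± 0.13 in EN was not called. Col6a3 fell by 1.35 ± 0.16 in EN and 2.05 ± 0.16 in AN, and Col6a2 fell by 1.18 ± 0.21 and 1.73 ± 0.21. For Col6a2 every 5 W array was below every P0 array of its root. EN arrays of Col6a2 held 12.25, 11.94 and 11.87 (P0), 11.63, 11.97 and 11.58 (1 W), 10.96, 11.17 and 11.11 (3 W) and then 11.41, 10.62 and 10.49 (5 W). AN arrays of Col6a2 held 11.68, 11.25 and 11.55 (P0), 10.93, 11.08 and 11 (1 W), 10.28, 10.39 and 10.53 (3 W) and then 10.08, 9.39 and 9.83 (5 W). Their other probes disagree. For Col6a2 one gave 0.99 in EN and 0.53 in AN, and for Col6a3 one gave 1.09 and 0.77 while the repeat probe printed above gave -0.97 and -0.86. Averaged over the probes of a gene, neither was called in either root. Col6a4 was highest at 1 W, when it rose by 1.14 ± 0.32 in EN and 1.27 ± 0.32 in AN. Both calls were lost under normexp (0.57 and 0.61). Col6a5 was not called at any step.

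In the network-forming class, Col10a1, the collagen of hypertrophic cartilage, had the largest fall. In EN it read 9.74, 10.86 and 10.13 at P0, 5.17, 6.69 and 8.87 at 1 W, 4.12, 5.46 and 4.62 at 3 W and 2.67, 4.69 and 3.44 at 5 W. In AN it read 9.26, 10.11 and 9.39 at P0, 4.95, 5.96 and 7.68 at 1 W, 3.52, 3.89 and 5.58 at 3 W and 3.1, 3.52 and 4.23 at 5 W. No array at 5 W was well above background, so the fall was taken on the deposited values with a floor. Each dim array was given the higher of its own value and the array's lowest signal above background. The falls were then 97.6-fold in EN (limma adjusted p = 1.57e-06) and 62.7-fold in AN (adjusted p = 5.89e-06). They are not lower bounds, since brighter probes could miss the mark. Col6a4 read 5.27, 5.23 and 4.63 in EN at 5 W, with 1 array well above background. The gene passed the filter through its early groups, so it had to differ. The 1 W arrays spread widely in both roots, with replicate 3 highest in each. These folds hold for that background correction only, since normexp made the fitted log2 differences -3.82 and -3.21, which are smaller falls.

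Col8a2, a chain of the hexagonal network of Descemet's membrane and vessels, was highest at 5 W in both roots. EN arrays of Col8a2 held 10.17, 10.11 and 9.63 (P0), 10.36, 10.51 and 10.2 (1 W), 10.72, 10.79 and 10.78 (3 W) and then 11.08, 11.26 and 11.08 (5 W). AN arrays of Col8a2 held 9.99, 9.73 and 9.78 (P0), 9.79, 9.97 and 10.15 (1 W), 10.12, 9.9 and 10.36 (3 W) and then 10.85, 11 and 10.75 (5 W). It rose by 1.17 ± 0.15 in EN (limma adjusted p = 3.22e-06) and 1.03 ± 0.15 in AN (adjusted p = 1.41e-05). Leaving out replicate 3 at P0 ended the EN call, and leaving out replicate 2 at P0 or at 5 W ended the AN call. A second probe of Col8a2 gave 0.84 in EN, not called (limma adjusted p = 0.103), and 1.28 in AN, which was called. Col8a1 is the other type VIII chain. EN arrays of Col8a1 held 12.33, 12.94 and 12.19 (P0), 10.91, 12.11 and 12.52 (1 W), 11.57, 11.4 and 11.01 (3 W) and then 11.72, 11.63 and 11.6 (5 W). AN arrays of Col8a1 held 12.51, 13.05 and 12.65 (P0), 11.22, 12 and 12.72 (1 W), 11.76, 10.88 and 13.33 (3 W) and then 11.97, 11.89 and 11.46 (5 W). It changed by -0.84 ± 0.49 in EN and -0.96 ± 0.49 in AN and was not called. Replicate 3 of AN at 3 W, at 13.33, stood above the other arrays of its group. Col7a1, the anchoring fibril chain, changed by 0.52 ± 0.21 in EN and 0.36 ± 0.21 in AN.

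Of 9 FACIT genes, 1 rose and 5 fell in EN from P0 to 5 W, and none rose and 4 fell in AN. Col19a1, a minor chain of basement membrane zones, read 7.6, 7.77 and 8.39 in EN and 7.68, 7.83 and 8.32 in AN at P0, and 2.58, 2.67 and 2.67 in EN and 3.03, 4.2 and 2.81 in AN at 5 W. No 5 W array was well above background. With the same floor, the fall on the deposited values was 22.2-fold in EN (limma adjusted p = 1.23e-08) and 24.2-fold in AN (adjusted p = 7.46e-08), again not lower bounds. Like Col10a1, it passed the filter through its early groups, and normexp made its fitted log2 differences -2.11 and -1.90, which are smaller falls. Col22a1, a chain of tissue junctions such as that of muscle and tendon, was low from 3 W on. EN arrays of Col22a1 held 11.17, 11.65 and 11.09 (P0), 10.35, 10.7 and 10.65 (1 W), 8.22, 8.19 and 7.83 (3 W) and then 8.45, 7.32 and 7.98 (5 W). AN arrays of Col22a1 held 11.28, 11.94 and 11.13 (P0), 10.28, 10.83 and 10.36 (1 W), 8.68, 8.56 and 9.67 (3 W) and then 9.1, 8.26 and 8.24 (5 W). It fell by 3.38 ± 0.32 in EN and fell by 2.92 ± 0.32 in AN, and it stepped down between 1 W and 3 W by 2.49 ± 0.32 and 1.52 ± 0.32. The second Col22a1 probe gave -1.2 in EN and -0.93 in AN from P0 to 5 W, the latter not called, and the mean of the probes -2.29 and -1.92.

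Type IX collagen sits on the surface of type II fibrils. Col9a1 read 11.25, 10.87 and 11.45 in EN and 11.03, 10.7 and 11.27 in AN at P0, and 9.26, 8.62 and 8.78 in EN and 8.01, 7.48 and 7.69 in AN at 5 W. It fell by 2.3 ± 0.25 in EN (limma adjusted p = 3.11e-07) and fell by 3.27 ± 0.25 in AN (adjusted p = 3.03e-09). Col9a3 fell by 1.83 ± 0.17 in EN and 2.03 ± 0.17 in AN. Col9a2 is another type IX chain. EN arrays of Col9a2 held 13.74, 13.58 and 13.7 (P0), 13.6, 13.62 and 13.39 (1 W), 13.48, 13.61 and 13.66 (3 W) and then 13.32, 12.81 and 12.88 (5 W). AN arrays of Col9a2 held 13.51, 13.2 and 13.57 (P0), 12.86, 12.88 and 12.71 (1 W), 12.81, 12.95 and 12.35 (3 W) and then 12.97, 12.42 and 12.73 (5 W). It changed by -0.67 ± 0.17 and -0.72 ± 0.17 and was not called.

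Col16a1, which associates with fibrils and microfibrils, read 14.66, 14.7 and 14.54 in EN at P0, 14.31, 14.27 and 14.26 at 1 W, 13.09, 13.18 and 13.11 at 3 W and 13.3, 12.98 and 13.13 at 5 W. In AN it read 14.92, 15.12 and 15.08 at P0, 14.35, 14.34 and 14.46 at 1 W, 14.07, 14.19 and 13.78 at 3 W and 14.36, 13.95 and 14.17 at 5 W. Both roots were lower at 5 W than at P0 on every array, by 1.5 ± 0.12 in EN (limma adjusted p = 9.71e-09) and by 0.88 ± 0.12 in AN, which is under 2-fold. Col14a1, a regulator of fibril spacing, rose by 1.73 ± 0.24 in EN (adjusted p = 8.14e-06) and changed by 0.86 ± 0.24 in AN, and the difference between these changes did not pass (-0.87 ± 0.34, adjusted p = 0.317). Col12a1 changed by -0.56 ± 0.12 in both roots and Col20a1 by 0.30 ± 0.15 in EN and 0.57 ± 0.15 in AN.

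Col15a1 and Col18a1 are the multiplexins, whose C-terminal parts are released as restin and endostatin. Col15a1 read 7.72, 7.18 and 6.62 in EN at P0, 10.25, 10.11 and 9.55 at 1 W, 11.18, 11.18 and 10.57 at 3 W and 9.6, 8.45 and 10.09 at 5 W. In AN it read 7.52, 6.69 and 6.73 at P0, 9.56, 9.48 and 8.85 at 1 W, 10.95, 10.3 and 9.18 at 3 W and 9.82, 8.61 and 10.58 at 5 W. All arrays after P0 were above all P0 arrays, and the step to 1 W was 2.80 ± 0.50 in EN (limma adjusted p = 0.00054) and 2.32 ± 0.50 in AN (adjusted p = 0.00282). By 5 W the rise was 2.21 ± 0.50 in EN and 2.69 ± 0.50 in AN. A second probe gave 0.96 in EN, not called (limma adjusted p = 0.0841), and 1.25 in AN, which was called. Col18a1 read 14.29, 14.27 and 14.15 in EN and 14.51, 14.52 and 14.66 in AN at P0, and 13.8, 13.24 and 13.85 in EN and 13.43, 12.65 and 13.56 in AN at 5 W. It fell in AN by 1.35 ± 0.20 (adjusted p = 1.31e-05) and changed by -0.61 ± 0.20 in EN.

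Of the 4 transmembrane chains, Col23a1 rose and Col13a1 fell in both roots. Col23a1 read 10.02, 9.59 and 9.82 in EN at P0, 11.78, 12 and 11.23 at 1 W, 12.63, 12.81 and 12.83 at 3 W and 12.97, 12.99 and 12.84 at 5 W. In AN it read 10.21, 10.26 and 10.67 at P0, 11.02, 11.12 and 10.75 at 1 W, 11.94, 12.09 and 11.51 at 3 W and 12.34, 12.38 and 12.16 at 5 W. AN started above EN at P0 and lay below it on every array from 1 W on. The rise was 3.12 ± 0.19 in EN (limma adjusted p = 2.17e-10) and 1.91 ± 0.19 in AN (adjusted p = 1.33e-07), and 2 further probes gave rises of 3.76 and 3.69 for EN, with 2.01 and 2.69 for AN. The difference between roots in this rise was -1.22 ± 0.27 (adjusted p = 0.0325), a call lost in 8 of 24 fits that left out 1 array, each time an array at P0 or 5 W, in the fit without a filter on dim probes and with its probes averaged. The 2 further probes gave -1.75 (adjusted p = 0.364) and -1.0 (adjusted p = 0.0573).

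Col13a1, a collagen of adhesion sites including the neuromuscular junction, read 10.33, 10.4 and 10.44 in EN and 9.99, 10.63 and 10.77 in AN at P0, and 7.21, 7.49 and 8.07 in EN and 7.22, 7.21 and 7.42 in AN at 5 W. It fell by 2.80 ± 0.28 in EN (limma adjusted p = 1.36e-07) and 3.18 ± 0.28 in AN (adjusted p = 2.64e-08). A second probe of Col13a1 gave -0.48 in EN and -0.15 in AN, neither called, and the mean of the probes gave -1.64 and -1.67. Col25a1, a collagen made by neurons, fell by 1.09 ± 0.32 in EN, a call lost with slide as a block, under normexp and without replicate 1 or 2 of EN at P0, and changed by -0.77 ± 0.32 in AN. Col17a1, the hemidesmosome collagen, changed by 0.99 ± 0.28 in EN and 0.51 ± 0.28 in AN. Among the 2 chains outside these classes, Col26a1, a chain with an EMI domain, had the highest signal. EN arrays of Col26a1 held 14.43, 14.4 and 14.42 (P0), 14.91, 14.92 and 15.04 (1 W), 14.96, 14.83 and 15.17 (3 W) and then 14.86, 15.1 and 14.69 (5 W). AN arrays of Col26a1 held 14.27, 14.44 and 14.67 (P0), 14.56, 14.54 and 14.69 (1 W), 14.56, 14.58 and 14.27 (3 W) and then 14.58, 14.87 and 14.66 (5 W). From P0 to 5 W it changed by 0.46 ± 0.13 in EN and 0.24 ± 0.13 in AN, and was not called.

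**Figure D4:**
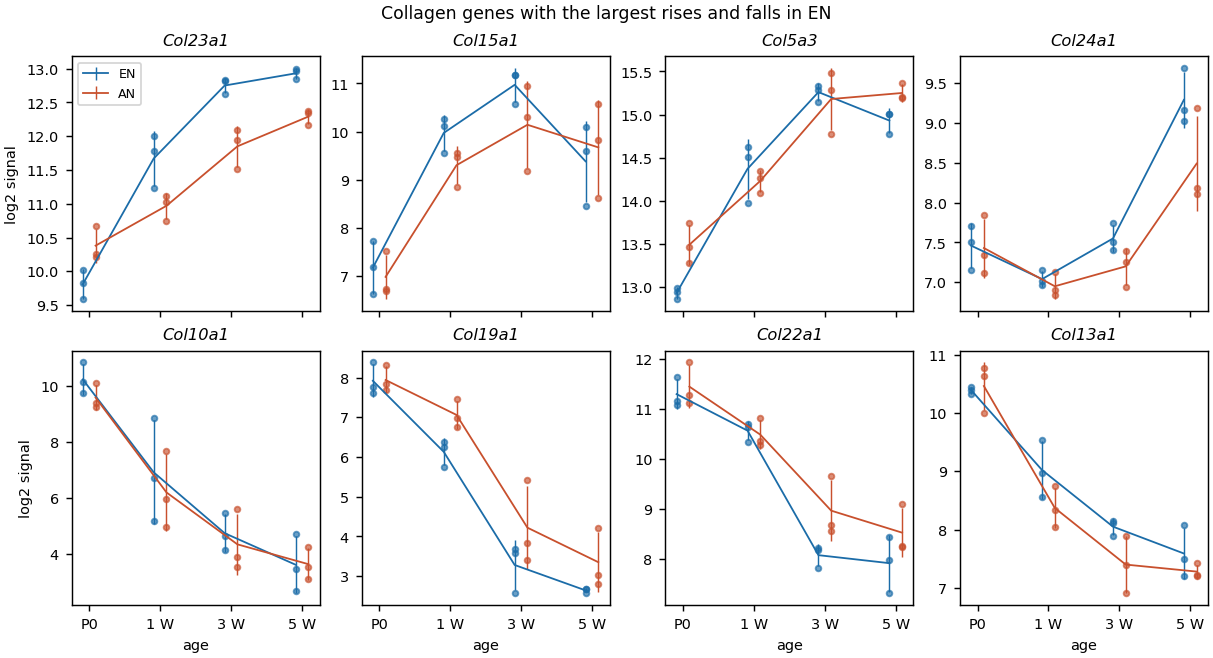
Log2 signal by age in EN (blue) and AN (orange) for the 4 collagen genes with the largest called rises in EN (top) and the 4 with the largest falls (bottom), with a point per array, lines through the means of 3 arrays and bars for ± 1 SD. Col24a1 rises only after 3 W, and the 5 W values of Col10a1 and Col19a1 were not well above background.

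The roots were then compared at each age. No collagen gene was called at P0, beside 0.0714% of probes higher in AN and 0.255% lower, or at 1 W, beside 2.41% and 0.371%. In these comparisons 12 and 11 genes passed at an unadjusted p under 0.05, with no share of all probes counted at that level. At 3 W, 1 gene was higher in AN (Col27a1) and 1 lower (Col9a1), beside 2.23% and 0.882% of probes. At 5 W, 2 were higher (Col16a1 and Col28a1) and 2 lower (Col6a2 and Col9a1), beside 2.49% and 0.821%. The median difference of the collagen genes, AN minus EN, was 0.08 at P0 (0.01 over all probes), -0.10 at 1 W (-0.06), -0.43 at 3 W (all probes -0.03) and -0.22 by 5 W (-0.03). At 3 W 32 of 42 genes had a negative difference, and the share of all probes with a negative difference was not counted.

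**Figure D5:**
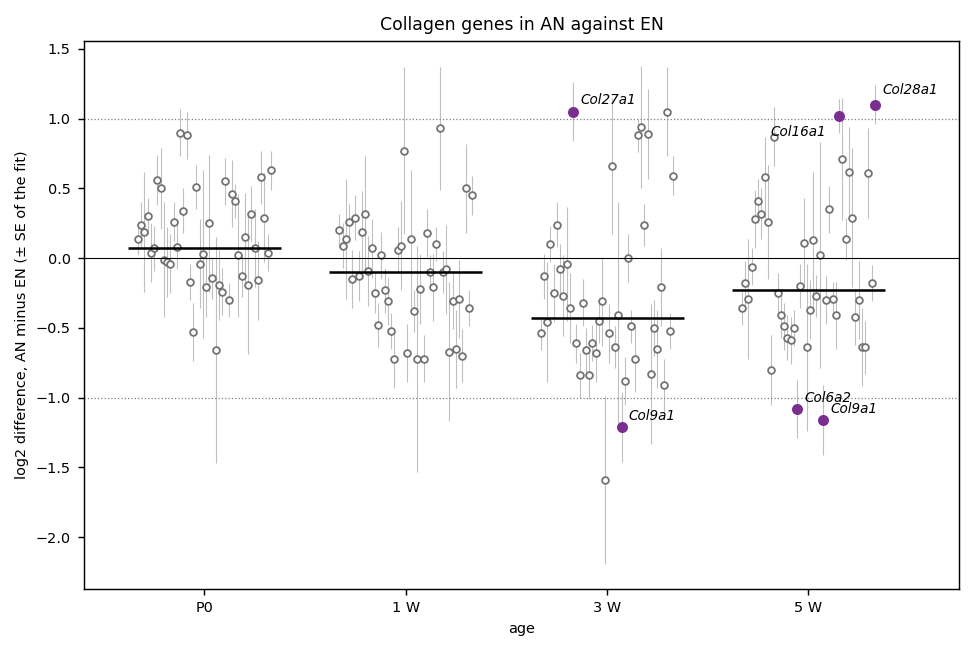
Log2 difference of AN minus EN at each age for the 42 collagen genes, with bars for the standard error of the fit, filled points for called genes, a thick line at the median and dotted lines at a 2-fold difference. The median line lies lowest at 3 W, at -0.43, and the filled points are 2 at 3 W and 4 at 5 W.

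Col28a1, a chain described at the Schwann cell basal lamina, read 9.13, 8.76 and 9.19 in EN and 9.5, 9.6 and 9.86 in AN at P0, and 8.92, 8.81 and 8.65 in EN and 9.93, 10.06 and 9.69 in AN at 5 W. AN was above EN at both ages with no overlap. The difference at 5 W was 1.1 ± 0.14 (limma adjusted p = 0.000121), and a second probe gave 0.97. Within the 3 pairs of the same number it was 1.01, 1.25 and 1.04. Col16a1, with the values given above, differed by 1.02 ± 0.12 (adjusted p = 4.61e-05), and by 1.06, 0.97 and 1.04 within pairs. Its call was lost under 75th percentile scaling, which made the split at 5 W 1 and 2, and without replicate 1 of AN or replicate 2 of EN, and its second probe gave 0.57.

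Col27a1, a fibrillar chain of cartilage and other tissues, read 7.94, 7.61 and 7.85 in EN and 9.03, 9.06 and 8.48 in AN at 3 W. The groups do not overlap, and the difference was 1.05 ± 0.21 (limma adjusted p = 0.00525), lost without replicate 1 or 2 of AN or replicate 2 of EN. At 5 W it was 0.87 (adjusted p = 0.0155), under 2-fold. Col9a1 was lower in AN by 1.21 ± 0.25 at 3 W (adjusted p = 0.00653) and by 1.16 ± 0.25 at 5 W (adjusted p = 0.00658), and in each of the 3 pairs at both ages. Without replicate 3 of AN the difference at 3 W was -0.98, and without replicate 1 of EN that at 5 W was also -0.98, both under 2-fold. For Col6a2 the difference at 5 W was -1.08 ± 0.21 (adjusted p = 0.00386), a value of -0.89 without replicate 2 of AN and -0.79 without replicate 1 of EN.

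Normexp ended the calls of Col27a1, Col6a2 and, at 5 W, Col9a1, and averaging the probes of a gene ended those of Col16a1, Col27a1 and Col6a2. With the replicate block, 4 collagen genes were called at 3 W in place of 2. Col25a1 was added as higher in AN (1.05, block adjusted p = 0.00491 against 0.0598) and Col6a5 as lower (-1.59, block adjusted p = 0.0245 against 0.137), with no AN array of Col6a5 well above background at that age. EN at 3 W was the only group with Col6a5 above background on all 3 arrays, so the gene passed the filter through the group where it is high and had to differ. Fitted to the 6 arrays of an age alone, Col27a1 and Col9a1 were both lost at 3 W, Col6a5 was the 1 gene called, and none was called at 5 W.

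Enzymes and receptors of collagen were counted from fixed lists. Of 18 tested genes of collagen synthesis and folding, 3 rose and 3 fell in EN from P0 to 5 W and 3 rose and 5 fell in AN, where 15.4% of all probes were higher and 14.5% lower in EN and 15.2% and 12.7% in AN. P3h2, a prolyl 3-hydroxylase that acts on type IV collagen, rose by 3.46 ± 0.21 in EN and 1.91 ± 0.21 in AN, and was lower in AN than in EN by 2.05 ± 0.21 at 3 W (limma adjusted p = 1.58e-05) and by 1.84 ± 0.21 at 5 W (adjusted p = 3.94e-05). P4ha1, a catalytic subunit of prolyl 4-hydroxylase, rose by 1.93 ± 0.18 and 1.91 ± 0.18, and Fkbp10, a collagen chaperone, fell by 2.05 ± 0.19 and 2.08 ± 0.19. Of 11 tested genes of procollagen cleavage and crosslinking, 3 rose and 3 fell in EN and 2 rose and 3 fell in AN. Lox, which oxidises lysines for crosslinks, rose by 3.80 ± 0.23 and 2.74 ± 0.23, and Tll1, a procollagen C-proteinase, by 3.98 ± 0.21 and 3.13 ± 0.21. Lox was also lower in AN than in EN at 3 W, by 1.4 ± 0.23 (adjusted p = 0.001).

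Of 12 genes for collagen receptors and uptake, 3 rose and none fell in EN, and 5 rose and 1 fell in AN. These are small counts of small lists, to be read against the same shares of all probes. Ddr1, a receptor kinase for collagen, rose by 1.53 ± 0.16 in EN and 1.13 ± 0.16 in AN, and Lair1, an inhibitory receptor of leukocytes, by 1.77 ± 0.20 and 1.48 ± 0.20. Itga11, an integrin subunit of fibroblasts, fell by 1.43 ± 0.16 in AN. The medians of the 3 lists from P0 to 5 W, in the order given, were -0.25, -0.04 and 0.24 for EN, with -0.39, -0.44 and 0.16 for AN, beside 0.04 and 0.03 over all probes.

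Markers of other tissues moved along with some of these results, and their part in them was not tested. The mean log2 signal of 8 tested cartilage markers was 8.73 ± 0.57 (SD, n = 3) in EN and 8.37 ± 0.38 in AN at P0, and 7.39 ± 0.22 and 7.18 ± 0.21 at 5 W. Matn1 and Matn3 had no probe above background on all 3 arrays of any group. Acan changed by -4.60 in EN and -4.76 in AN, Snorc by -5.31 and -4.45, and Matn4 by -1.65 and -2.08. Sox9 rose by 1.76 and 2.07. Cnmd, the gene of chondromodulin, rose by 5.20 in EN and 2.68 in AN, so members of the list moved in both directions. Comp and Hapln1 fell in EN and were not called in AN, and Ucma was called in neither root. Col2a1, Col9a1, Col10a1 and Col11a1 are cartilage chains that fell over the same interval. For 7 tested bone markers the P0 means were 8.20 ± 0.25 (EN) and 8.43 ± 0.77 (AN), those of 5 W 6.96 ± 0.67 and 6.51 ± 0.80. Phex had no probe above background on all 3 arrays of any group. The mean of the 8 muscle markers ranged from 9.99 to 13.68 over the AN arrays at 3 W and from 10.48 to 11.34 over the EN arrays.

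The mean of 10 Schwann cell markers, which both roots share, was 15.17 to 17 in all 8 groups. It was 15.81 in EN and 15.17 in AN at P0, and 16.88 and 17 at 5 W. AN minus EN was -0.63 at P0 and -0.2, -0.03 and 0.12 at the later ages (exact two-sided permutation p from 0.1 to 0.8). The mean of sensory neuron markers was 6.91 in EN and 11.32 in AN at 1 W. On the 3 W AN arrays this mean spread from 8.03 to 12.61. On the 5 W AN arrays it spread from 6.32 to 9.61, overlapping the 6.3 to 6.95 of the 5 W EN arrays. The 9 endothelial markers differed between roots by 0.51 at P0 and by -0.41, -0.48 and -0.22 at the later ages (AN minus EN), the same signs as Col4a1, Col4a2, Col4a5 and Col4a6. The exact two-sided permutation p was 0.1 at each age, the smallest that 3 against 3 arrays can give. Perineurial markers, 6 in all, differed by -0.15, -0.64, -0.41 and -0.45, and fibroblast markers, 10 in all, by -0.09, -0.32, -0.54 and -0.43, with exact permutation p from 0.1 to 0.8. The means of 9 meningeal, 8 mural and 8 oligodendrocyte markers differed between roots at 5 W by -0.34, 0.02 and 1.1.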

How the data were processed

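RNA of 24 root samples was hybridised to one-colour Agilent mouse arrays. The authors deposited scanner intensity values per spot, made with Agilent Feature Extraction 10.7.1.1, and a log2 table, quantile normalized across arrays. Those log2 values were used as deposited, and each column matched its own array's intensity best (r 0.9976 to 0.9999). A probe was kept when some group had it marked above background on each of its 3 arrays. limma 3.58.1 (R 4.3.3) fitted 8 group means, and 14 comparisons were adjusted by Benjamini-Hochberg over all 36410 probes, with the threshold of 0.05 and 2-fold. Scanner intensity, in place of the deposited table, gave the normexp and 75th percentile alternatives. The fit was tested on simulated data. Members, gene lists and tests were chosen with earlier results of these data known. Array values are given for the brightest gene of each class and the 4 largest rises and falls of each root. They are also given for genes called between roots and for neighbouring or partner genes. For some of all these genes only some ages are printed. Same-numbered AN and EN arrays deviated together (12 correlations from 0.1073 to 0.6458) and shared a slide. At 3 W, where all arrays shared 1 slide, the correlations were 0.1073 to 0.2135. It is not stated that a number marks the same animals, so pairs here are arrays of the same number. The fit reported has no block for these pairs, the permutation tests of marker means are unpaired, and the replicate block is an alternative.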

Additional observations from a re-analysis of the deposited data

Results flagged for a closer look

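The change from P0 to 5 W differed between the roots for 3 collagen genes, by the limma test of the difference itself (AN minus EN at 5 W, less AN minus EN at P0). The values were -1.39 for Col4a4 (adjusted p = 0.00647), -1.47 for Col4a6 (adjusted p = 0.00428) and -1.22 for Col23a1 (adjusted p = 0.0325). With 3 arrays in each group no test for a single distant array was made.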

How the results depend on the processing

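No call changed direction under the alternatives run, which did not include a gene's second probe alone. From P0 to 5 W second probes had the opposite sign for Col5a2, Col6a2 and Col6a3 in both roots and Col11a2 in EN, and that of Col6a3 was called higher in EN (1.09, limma adjusted p = 0.016). The number of collagen genes called moved by over 1.5 times as follows. With no fold threshold it was 19 (EN, P0 to 1 W), 19 (EN, 1 W to 3 W), 3 (EN, 3 W to 5 W), 20, 22 and 3 for the same steps in AN, and between roots 3 (P0), 3 (1 W), 15 (3 W) and 8 (5 W) genes. With normexp it was 4 (EN, 1 W to 3 W), 1 and 2 between roots at 3 W and 5 W, and 1 for the change of the root difference by 1 W. With the mean of a gene's probes it was 2 (EN, 3 W to 5 W) and 2 between roots at 5 W. Array weights gave 2 (EN, 3 W to 5 W), 10 (AN, 1 W to 3 W) and 2 for the change by 1 W. Slide as a block gave 10 (AN, 1 W to 3 W), 0 (AN, 3 W to 5 W) and 1 for the change by 1 W. Only the arrays compared gave 0 for 3 W to 5 W in EN and in AN, 1 and 0 between roots at 3 W and 5 W, and 1 and 0 for the changes by 1 W and 5 W. Unadjusted p gave 2 (EN, 3 W to 5 W), 4 between roots at 3 W and 2 for the change by 1 W, and requiring all 24 arrays above background gave 1 for the latter. The replicate block gave 4 between roots at 3 W and 2 for the change by 1 W, added Col10a1 to the falls of EN between 1 W and 3 W (block adjusted p = 0.0435 against 0.0523 in limma), and changed no other call. Leaving out 1 array gave 9 to 11, 6 to 9 and 1 to 3 genes for the EN steps, 8 to 11, 6 to 10 and 0 to 1 for the AN steps, 20 to 24 and 19 to 22 from P0 to 5 W in EN and AN, 0 to 1, 0 to 0, 1 to 3 and 2 to 5 between roots by age, and 0 to 2 and 2 to 4 for the changes by 1 W and 5 W. The 10 in AN came without replicate 3 at 3 W, the 0 without replicate 2 at 5 W and the 2 between roots at 5 W without replicate 1 of EN. The causes were not tested. Signal near background limits Col6a4, Col6a5, Col10a1 and Col19a1.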
